A study of Mus musculus with 6 samples.

Results

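Transcripts of 10 genes of de novo fatty acid synthesis were followed in mouse oligodendrocytes, the glia that wrap central axons in myelin, which were taken straight from the brain without culture. The genes were chosen by name for their roles in citrate and acetate use, carboxylation, NADPH supply and fatty acid synthase, and all 10 were found among the 46983 annotated features of the deposited table. RNA was sequenced from 3 libraries of control (WT) mice and 3 libraries of Plp-CreERT2;QKLoxP/LoxP mice (Qk-KO, genotype Qk-/-), all on an FvB/C57BL6 hybrid background and labelled 8 weeks old. Both groups received tamoxifen at 8 weeks and their brains were taken 4 days later. Tamoxifen activates the Cre recombinase, which the Plp promoter drives in myelinating glia, and the recombinase removes a floxed part of Qk, the gene of the RNA-binding protein quaking. Whether the controls carry the Cre transgene or the floxed allele is not given in the sources used here, and the labels do not say that libraries come from separate animals, so p-values here reflect only how far these libraries spread, which may be technical.

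De novo synthesis builds fatty acids from acetyl-CoA in the cytosol. The citrate carrier Slc25a1 exports citrate from mitochondria, Acly cleaves it to acetyl-CoA, Acss2 makes acetyl-CoA from acetate, acetyl-CoA carboxylase turns acetyl-CoA into malonyl-CoA, and fatty acid synthase joins these units into palmitate with NADPH, part of which malic enzyme, Me1, supplies. A separate mitochondrial pathway, to which Mcat and Oxsm belong, makes the precursor of lipoic acid. Myelin is rich in lipid, and oligodendrocytes make much of its fatty acid themselves. The transcription factor SREBP-1, which binds sterol regulatory elements and often works with the CCAAT-binding factor NF-Y and with Sp1 at GC boxes, is a main activator of the cytosolic genes.

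Promoter sequence is shown for 4 genes on which the comparison below turns, Fasn, Me1 and Acacb, which were lower in Qk-KO, and Acly, which was higher. The sequences are RefSeq's for GRCm38.p6 (mm10), run 5′ to 3′ along the gene's strand, end at or just before an annotated start, and leave out bases that GENCODE M21 places in an exon. Capitals mark the CCAAT box, the letters GGGCGG of a GC box, and the letters TCACCC that many sterol regulatory elements share, each on either strand.
Fasn (chr11:120824548-120824797, minus strand): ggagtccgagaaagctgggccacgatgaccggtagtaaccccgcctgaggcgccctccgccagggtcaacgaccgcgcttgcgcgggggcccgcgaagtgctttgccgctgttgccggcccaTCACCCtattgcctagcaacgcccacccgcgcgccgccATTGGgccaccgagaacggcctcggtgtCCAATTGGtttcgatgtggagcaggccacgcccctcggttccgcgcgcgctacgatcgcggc
Acly (chr11:100528001-100528250, minus strand): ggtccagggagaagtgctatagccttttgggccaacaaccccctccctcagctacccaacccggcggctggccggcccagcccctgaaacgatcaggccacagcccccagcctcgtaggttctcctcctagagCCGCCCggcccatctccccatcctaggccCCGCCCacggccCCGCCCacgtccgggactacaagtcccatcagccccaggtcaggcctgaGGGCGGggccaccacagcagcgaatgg
Me1 (chr9:86695954-86696164, minus strand): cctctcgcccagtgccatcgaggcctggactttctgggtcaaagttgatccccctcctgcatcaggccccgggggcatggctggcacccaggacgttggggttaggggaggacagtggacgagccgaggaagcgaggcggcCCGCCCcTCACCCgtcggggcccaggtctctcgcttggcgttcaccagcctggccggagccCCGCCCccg
Acacb (chr5:114165268-114165508, plus strand): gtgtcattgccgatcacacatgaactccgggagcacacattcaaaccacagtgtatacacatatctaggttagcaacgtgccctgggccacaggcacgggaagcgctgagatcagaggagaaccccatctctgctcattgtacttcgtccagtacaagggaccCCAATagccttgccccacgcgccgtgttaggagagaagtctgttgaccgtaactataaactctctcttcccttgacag
The Fasn window holds 3 CCAAT boxes, of which the pair nearest the start overlap on opposite strands, and TCACCC at 128 bases before the start. The Acly window holds 4 GC boxes and none of the other letters searched. In the stretch shown for Me1, TCACCC starts at 102 bases before the start and lies between 2 GC boxes, at 109 and 48. The Acacb window, at a start inside the annotated gene, holds 1 CCAAT box. RefSeq gave 12 windows for 9 of the 10 genes, all but Mcat. In the 250 bases before the start, CCAAT was found in 6 of the 12 windows, 1 each for Acacb, Acss2, Fasn, Me1, Slc25a1 and Thrsp, and in 33.8% of all 32851 windows. GGGCGG was found in 6 of the 12 windows, of 5 genes (32.7% of all windows), TCACCC in 3 (Acss2, Fasn and Me1; 13.8%), the E-box CACGTG in 1 (Slc25a1; 6.02%) and the longer sterol element core TCACNCCAC in 0 of the 12 (1.05%). These matches are descriptions of letters, and the motifs were chosen after the sequences were seen.

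The values compared are regularized log2 values, which the authors scaled between libraries, and log2 changes are Qk-KO less WT, each with limma's standard error. A gene is called where its p-value, adjusted over all 15153 features tested, is under 0.05. Approximate totals per library were 23600000 to 28100000 reads in WT, 32500000 in Qk-KO replicate 1, and 71400000 and 78900000 in the other two. Features of ribosomal RNA took 59.8% to 64.8% of the signal in the WT libraries and Qk-KO replicate 1, but 2.23% and 1.88% in Qk-KO replicates 2 and 3, so results are also given for Qk-KO replicate 1 set alone against WT, where the ribosomal share is alike and the single Qk-KO library is taken to spread as the WT ones do. In that comparison 15.5% of all features were called, 9.37% lower and 6.17% higher. Behind the 10 genes stood from 72 reads (Thrsp, in its lowest library) to 31541 reads (Fasn, in its highest), estimated from the values and the size factors, and all 10 passed the filter of a mean normalized count of 20. Defining markers were present for mature oligodendrocytes and also for other cells: summed normalized reads over 10 mature oligodendrocyte markers were 505336 to 659341 in WT against 691862 to 774613 in Qk-KO, and over 12 astrocyte markers 139540 to 175029 in WT against 20360 to 32150 in Qk-KO, with no marker of either list at 0. In these bulk samples fewer cells of a type and less RNA per cell cannot be told apart. The targeted gene, Qk, had log2 values of 15.41, 15.67 and 15.31 in WT against 16.10, 15.62 and 15.30 in Qk-KO (adjusted p = 0.567). A value for the whole gene does not separate the deleted exons, so it checks nothing about the labels.

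Of the 10 genes 4 were lower in Qk-KO (Acacb, Fasn, Thrsp and Me1), 1 was higher (Acly) and 5 were not called (Acaca, Acss2, Slc25a1, Mcat and Oxsm). Across all features tested 28.6% were called, 14.8% lower and 13.8% higher. The WT and Qk-KO values of the same 5 called genes did not overlap, as was the case for 46.3% of all features, 21.8% lower and 24.5% higher. The median change of the 10 genes was -0.29, against 0.03 for all features. These directions hold for the authors' scaling; when libraries were scaled by their total alone, in which ribosomal reads enter, the median of all features moved up by 1.06, and Fasn and Acacb stood at -0.00 and -0.03, Thrsp at 0.02, Me1 at 0.23 and Acly at 1.52. Against the median of all features in that scaling the changes of Fasn, Acacb, Thrsp, Me1 and Acly were -1.09, -1.12, -1.07, -0.86 and 0.43. With library type (high or low ribosomal share) as a term 14.9% of features were called (9.14% lower, 5.76% higher), and of the 10 genes 5 fell: Acacb, Fasn, Thrsp, Acss2 and Slc25a1. With the replicate number as a block 28.7% were called, among them the same 5 genes as without it.

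**Figure D1:**
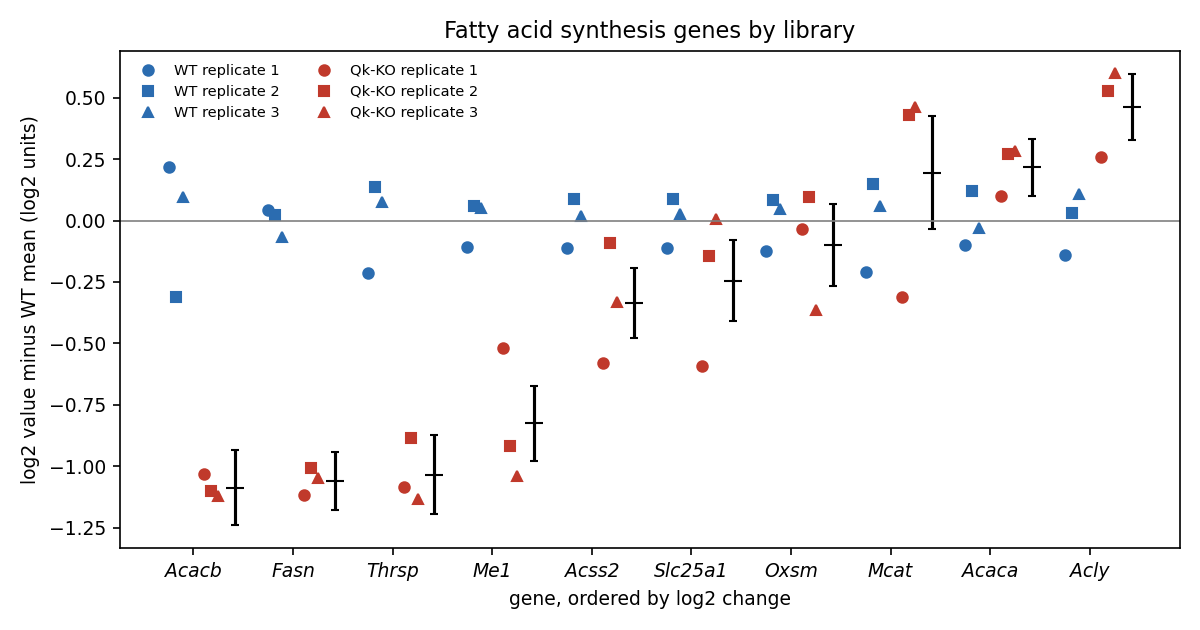
Log2 value minus the WT mean (vertical axis, log2 units) of each of the 10 genes, ordered by change, with 1 point for each library (blue for WT, red for Qk-KO; a circle, square or triangle for the replicate) and the mean change with limma's standard error in black. Qk-KO points of Acacb lie from -1.12 to -1.03 and those of Acly from 0.26 to 0.60, whereas those of Mcat lie on both sides of the WT mean; scaled by library size alone, Me1 turns to 0.23 and Thrsp to 0.02.

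Of the genes that handle citrate and acetate, Acly rose and Slc25a1 and Acss2 were not called. Acly, ATP-citrate lyase (ENSMUSG00000020917.17, chromosome 11, 100476353 to 100528000, minus strand, mm10), had log2 values of 11.81, 11.98 and 12.06 in WT against 12.21, 12.48 and 12.55 in Qk-KO, here and below in the order of replicates 1, 2 and 3. Every Qk-KO library was above every WT library, with the smallest step in Qk-KO replicate 1. Acly rose by 0.46 ± 0.13 (SE, n = 3 per group, limma adjusted p = 0.0351), from 11.95 ± 0.12 to 12.41 ± 0.18 (SD). This was the least stable of the 5 calls. It was lost without any 1 of the WT libraries (limma adjusted p = 0.127, 0.0757 and 0.0707) or Qk-KO replicate 2 or 3 (0.127 and 0.0811), with quantile normalization (0.30, adjusted p = 0.146), and where Qk-KO replicate 1 stood for its group (0.26, adjusted p = 0.294).

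Slc25a1, the citrate carrier (chromosome 16, 17925223 to 17928219, minus strand), had log2 values of 9.90, 10.10 and 10.04 in WT against 9.42, 9.87 and 10.02 in Qk-KO. The groups overlapped, since Qk-KO replicate 3 lay within the WT range and only replicates 1 and 2 lay below it. The change was -0.24 ± 0.17 with a 95% interval of -0.63 to 0.14 and was not called (adjusted p = 0.298). With Qk-KO replicate 1 alone against WT the value was -0.59 with an adjusted p of 0.0407.

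Acss2, the cytosolic and nuclear acetyl-CoA synthetase (chromosome 2, 155517948 to 155585724, plus strand), had log2 values of 10.62, 10.82 and 10.75 in WT against 10.15, 10.64 and 10.40 in Qk-KO. Qk-KO replicate 2 was at the level of WT replicate 1, and the other Qk-KO libraries were below all WT libraries. The change of -0.34 ± 0.14 (95% interval -0.67 to -0.00) was not called over all features (adjusted p = 0.116), though it was with Qk-KO replicate 1 alone against WT (-0.58, adjusted p = 0.0346). Exons of Acss2 share 927 of 10163 merged bases with genes on the opposite strand (Gss, Acss2os and Ggt7). Whether counting used strand, and how it treated reads that meet several genes, is not given in the sources used here. Reads on the shared bases may therefore have been added to Acss2 or lost from it.

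Of the carboxylases Acacb fell and Acaca was not called. Acaca encodes the carboxylase that makes cytosolic malonyl-CoA for synthesis, and Acacb encodes the one that sits at the mitochondrial outer membrane and whose malonyl-CoA restrains fatty acid import for oxidation. Acacb (ENSMUSG00000042010.16, chromosome 5, 114146535 to 114250761, plus strand) had log2 values of 10.12, 9.59 and 10 in WT against 8.87, 8.80 and 8.78 in Qk-KO. The Qk-KO libraries lay close together and far below the lowest WT library, replicate 2. Acacb fell by 1.09 ± 0.15 (adjusted p = 0.00190), to 47.1% of its WT level, and was also lower with Qk-KO replicate 1 alone against WT (-1.03, adjusted p = 0.0204). Acaca (chromosome 11, 84129672 to 84401651, plus strand) had log2 values of 11.87, 12.09 and 11.94 in WT against 12.07, 12.24 and 12.25 in Qk-KO. Its groups overlapped at WT replicate 2 and Qk-KO replicate 1. The change of 0.22 ± 0.12 was not called (adjusted p = 0.193), with a 95% interval of -0.05 to 0.49, against -1.44 to -0.73 for Acacb.

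Fatty acid synthase had the lowest adjusted p of the 10 genes. Fasn (ENSMUSG00000025153.9, chromosome 11, 120805846 to 120824547, minus strand, mm10), the multifunctional enzyme that makes palmitate, had log2 values of 13.94, 13.92 and 13.83 in WT against 12.78, 12.89 and 12.85 in Qk-KO. Within each group the libraries differed by little, and the groups were far apart. The change was -1.06 ± 0.12 (adjusted p = 0.000683), which leaves 47.9% of the WT level. Qk-KO replicate 1 alone against WT gave -1.12 (adjusted p = 0.00290), in a library whose ribosomal share was like that of WT. In the authors' deposited table the log2 fold change of Fasn was -1.24 ± 0.13 with an adjusted p of 1.11e-19.

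Me1, the cytosolic malic enzyme that yields NADPH (chromosome 9, 86581371 to 86695953, minus strand), had log2 values of 9.95, 10.12 and 10.11 in WT against 9.54, 9.14 and 9.02 in Qk-KO. All Qk-KO libraries were below WT, replicate 1 by less than replicates 2 and 3. Me1 fell by 0.83 ± 0.15 (adjusted p = 0.00639). Replicate 1 against WT gave -0.52 and was not called (adjusted p = 0.0587).

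Thrsp encodes Spot14, a small nuclear and cytosolic protein that responds to thyroid hormone and promotes lipogenesis. The gene (chromosome 7, 97412938 to 97417730, minus strand) had log2 values of 7.74, 8.09 and 8.03 in WT against 6.87, 7.07 and 6.82 in Qk-KO, again without overlap. Thrsp fell by 1.03 ± 0.16 (adjusted p = 0.00278), and by 1.09 where Qk-KO replicate 1 stood for its group (adjusted p = 0.0216). The authors' deposited table gave a larger log2 fold change, -1.52 ± 0.27. Regularized values of genes with few reads are pulled toward their mean, and Thrsp had the fewest reads in its lowest library of the 10 genes.

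The mitochondrial pair did not pass the test. Mcat, which loads malonyl groups onto the mitochondrial acyl carrier protein (chromosome 15, 83546797 to 83563787, minus strand), had log2 values of 7.44, 7.80 and 7.71 in WT against 7.34, 8.08 and 8.11 in Qk-KO. Qk-KO replicate 1 was the lowest library of all and replicates 2 and 3 the highest, along the division in ribosomal signal. The change was 0.19 ± 0.23 (95% interval -0.34 to 0.73, adjusted p = 0.554) and turned to -0.31 where Qk-KO replicate 1 stood for its group (adjusted p = 0.444). Oxsm, the mitochondrial ketoacyl synthase (chromosome 14, 16238652 to 16249808, minus strand), had log2 values of 7.53, 7.74 and 7.70 in WT against 7.62, 7.75 and 7.29 in Qk-KO, and its groups overlapped over most of their range. The change was -0.10 ± 0.17 (95% interval -0.48 to 0.29, adjusted p = 0.686). Without Qk-KO replicate 3, its lowest library, the value was 0.03.

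Spread between libraries was uneven. In 6 of the 10 genes, and in 8698 of all 15153 features, the SD was larger in Qk-KO than in WT, as in Mcat (0.43 against 0.18), Slc25a1 (0.31 against 0.10) and Me1 (0.27 against 0.09). In Acacb the order was the reverse, with 0.05 in Qk-KO and 0.28 in WT.

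Levels of different genes were compared per length of merged exons, as normalized reads per kilobase. Merged exons pool all annotated transcripts of a gene, 10.16 kilobases for Acss2 and 17.07 for Acaca. Which transcripts were present was not tested, so a gene whose main transcript is shorter is set too low, and the order depends on these lengths. In WT, Fasn stood first with 1396 ± 56.8 normalized reads per kilobase (SD, n = 3), followed by Acly with 752 ± 63.7, Slc25a1 with 478 ± 33.7, Me1 with 278 ± 17.8, Acaca with 235 ± 18.3 and Acss2 with 168 ± 11.5. Thrsp, Acacb and Mcat came next at 114 ± 14.1, 101 ± 18.3 and 82 ± 10.2, where neighbouring genes overlapped between libraries, and Oxsm was last with 49 ± 3.73. In Qk-KO the first places changed hands: Acly reached 1038 ± 127 and Fasn 669 ± 26.3, with every Qk-KO library of Acly (895 to 1136) above every one of Fasn (642 to 694). Acaca, at 273 ± 19.1, stood above Me1, at 158 ± 30.9, in all 3 Qk-KO libraries and below it in all 3 WT libraries. Acacb (46.8 ± 1.56) and Oxsm (46 ± 7.29) could not be ordered in Qk-KO, nor could Me1 and Acss2 (134 ± 22.8). Acss2 was above Mcat (96 ± 26) within each Qk-KO library, at 112 against 66, 157 against 110 and 133 against 112, though their ranges met.

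**Figure D2:**
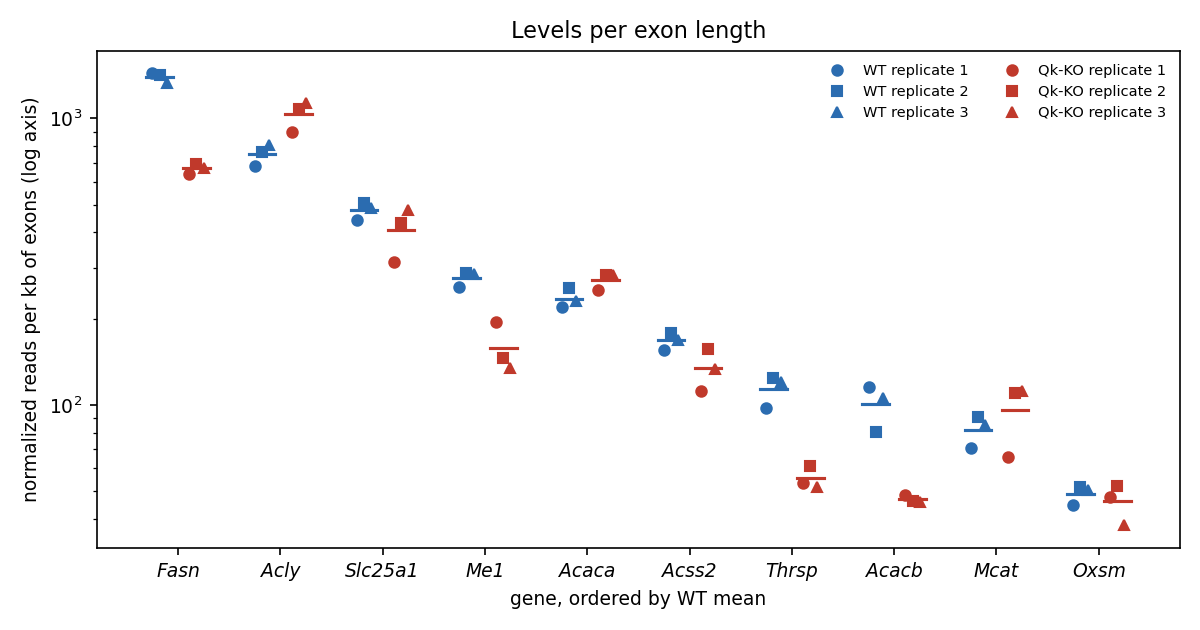
Normalized reads per kilobase of merged exons (vertical axis, log scale) for the 10 genes in order of their WT mean, with 1 point for each library (blue for WT, red for Qk-KO) and a short line at each group mean. Fasn lies at 1331 to 1437 in WT against 642 to 694 in Qk-KO, and Acly at 682 to 807 in WT against 895 to 1136 in Qk-KO; scaled by library size alone, the log2 changes of Fasn and Acly are -0.00 and 1.52.

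As a share of the summed level per kilobase of the 10 genes, Fasn made up 40.8%, 37.8% and 36.2% in WT against 24.4%, 22.6% and 21.8% in Qk-KO. Acly made up 19.4%, 20.4% and 22% in WT against 34.1%, 35.3% and 36.8% in Qk-KO. A further scaling factor per library leaves these shares as they are, but the shares are bound to sum to the same whole. They also rest on the merged exon lengths and on regularized values. Both changes were free of overlap, with an exact two-sided permutation p of 0.1, the smallest that 3 libraries against 3 allow (0.167 adjusted over the 10 shares). The share of Acaca went from 6.44% ± 0.307 to 9.35% ± 0.193 in the same way, and that of Acss2 was 4.58% ± 0.164 in WT and 4.56% ± 0.494 in Qk-KO.

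The difference between 2 genes of the same library is likewise unchanged by a further scaling factor per library, and 6 pairs were compared. The pull of regularized values toward each gene's mean differs between genes and remains in these differences. Acly minus Fasn was -2.13, -1.94 and -1.77 log2 units in WT against -0.57, -0.41 and -0.30 in Qk-KO, a shift of 1.52 that was present in every Qk-KO library. Acaca minus Acacb was 1.76, 2.50 and 1.94 in WT against 3.20, 3.44 and 3.47 in Qk-KO, a shift of 1.30. For the enzymes that make cytosolic acetyl-CoA, Acly minus Acss2 went from 1.22 ± 0.08 to 2.02 ± 0.16 (SD). Slc25a1 minus Acly went from -1.94 ± 0.07 to -2.64 ± 0.13. Fasn minus Oxsm shifted by -0.96 and Fasn minus Mcat by -1.25. Fasn minus Mcat was 6.50, 6.13 and 6.12 in WT against 5.43, 4.81 and 4.74 in Qk-KO, with the smallest step in Qk-KO replicate 1. The groups did not overlap in any of the 6 pairs, and each pair gave the smallest exact permutation p of 0.1 (two-sided, 0.1 adjusted over the 6). With 3 libraries against 3 this test cannot go below that value. Each pair holds Acly, Acacb or Fasn, whose groups already did not overlap as single genes. Acly and Fasn recur, so the pairs are not independent of each other. Of single features 46.3% did not overlap, and the share over other gene pairs was not computed. Because the groups did not overlap, leaving out 1 library could not turn the sign of any of the 6 shifts.

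**Figure D3:**
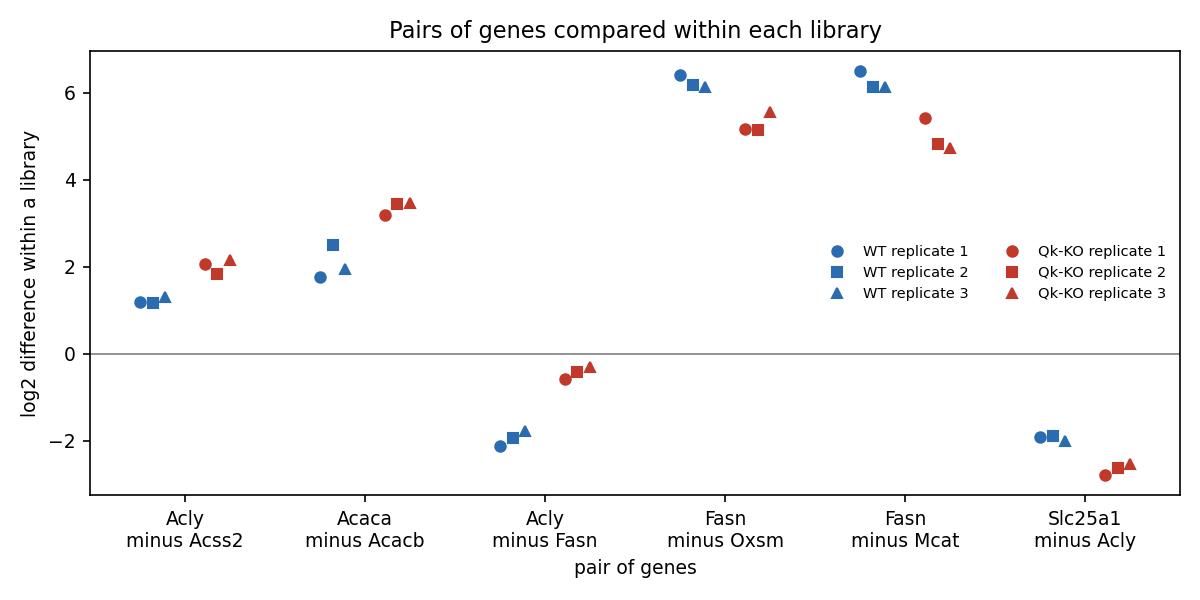
Log2 difference between both genes of a pair within each library (vertical axis), for the 6 pairs named on the horizontal axis, with 1 point for each library (blue for WT, red for Qk-KO). For Acly minus Fasn the WT points lie from -2.13 to -1.77 and the Qk-KO points from -0.57 to -0.30.

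Genes around the pathway were read from 7 lists. Of the 62 genes tested in them 6 rose and 13 fell, where 28.6% of all features were called, 13.8% higher and 14.8% lower. Counts of single lists are to be read against these shares. Among 14 regulators of lipogenic transcription 3 rose and 2 fell, with a median of 0.14. Mid1ip1, the paralog of Thrsp that helps acetyl-CoA carboxylase to polymerize, fell by 0.92 ± 0.14 (adjusted p = 0.00265), close in size to Thrsp itself. Insig1, which holds the SREBP escort protein in the endoplasmic reticulum and is itself an SREBP target, fell by 0.83 ± 0.13 (adjusted p = 0.00354). Both were also called without each library in turn and where Qk-KO replicate 1 stood for its group (-1.16 and -1.01), but stood at 0.14 and 0.23 with library size alone. Usf1, an E-box-binding factor of lipogenic promoters, rose by 0.67 ± 0.13 (adjusted p = 0.00756), and Scap, the SREBP escort protein, by 0.42 ± 0.10 (adjusted p = 0.0176). Mbtps1, a protease that cleaves SREBP and was picked after its value was seen, rose by 0.41 ± 0.11 (adjusted p = 0.0259). The SREBP-1 gene Srebf1, likewise picked afterwards, had log2 values of 13.14, 12.96 and 12.89 in WT against 12.47, 12.77 and 12.68 in Qk-KO. Its groups did not overlap, but the change of -0.36 ± 0.13 was not called (adjusted p = 0.0795), except after quantile normalization (-0.56, adjusted p = 0.0210). Calls of the genes that rose were less stable. Usf1 lost its call where Qk-KO replicate 1 alone stood for the group (0.50, adjusted p = 0.0800). The call of Scap was lost without either WT replicate 1 or WT replicate 3, or Qk-KO replicate 2 (0.0683, 0.0704 and 0.0770), and that of Mbtps1 without either WT replicate 1 or WT replicate 3, or Qk-KO replicate 2 or 3 (0.0811, 0.102, 0.0945 and 0.0528).

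Beside Me1, 8 genes listed with NADPH supply were tested, though not all of their enzymes yield NADPH, and 2 rose. Me2, a mitochondrial malic enzyme that uses mainly NAD, rose by 0.54 ± 0.13 (limma adjusted p = 0.0158). G6pdx, the entry enzyme of the pentose phosphate pathway, rose by 0.50 ± 0.13 (limma adjusted p = 0.0238). Log2 values of G6pdx were 10.10, 10.36 and 9.94 in WT against 10.59, 10.65 and 10.65 in Qk-KO. The list's median was 0.07. Both calls were lost without WT replicate 1 (adjusted p = 0.0531 for Me2 and 0.0815 for G6pdx), WT replicate 3 (0.0602 and 0.0878) or Qk-KO replicate 2 (0.0771 and 0.0841). Where Qk-KO replicate 1 stood for its group, Me2 was at 0.34 (adjusted p = 0.204) and G6pdx at 0.46 (0.147), and of the list 0 rose and 1 fell.

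On the way from pyruvate to citrate 2 of 10 genes fell and 1 rose, with a median of 0.15. Pdha1, the catalytic subunit of pyruvate dehydrogenase, fell by 0.45 ± 0.10 (adjusted p = 0.0134) and citrate synthase, Cs, by 0.42 ± 0.12 (adjusted p = 0.0309). With library size alone Pdha1 and Cs stood at 0.60 and 0.64. Pdhb, the partner subunit of Pdha1, rose by 0.40 ± 0.12 (adjusted p = 0.0445). Pdha1 was not called without Qk-KO replicate 2 (adjusted p = 0.0625), nor with Qk-KO replicate 1 alone (0.0587). Cs was not called without any library but Qk-KO replicate 1 (adjusted p from 0.0518 to 0.0917), nor was Pdhb (0.0578 to 0.170), and with the replicate number as a block Pdhb had an adjusted p of 0.0508.

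Among 3 further acyl-CoA synthetases Acss1, the mitochondrial acetyl-CoA synthetase, fell by 1.52 ± 0.12 (adjusted p = 0.000151). Its log2 values were 10.27, 10.44 and 10.38 in WT against 8.75, 8.80 and 8.99 in Qk-KO, a wider gap than for its cytosolic relative Acss2, although the difference between both changes was not tested. Acsf3, the mitochondrial malonyl-CoA synthetase, had a change of 0.04 ± 0.13 (adjusted p = 0.841). Of 8 genes for subunits and a kinase of AMPK, which phosphorylates acetyl-CoA carboxylase, and for malonyl-CoA decarboxylase, 1 fell. It was Prkab2 (-0.66 ± 0.18, adjusted p = 0.0279, and 0.40 with library size alone), picked after its value was seen and not called without either WT replicate 1 or WT replicate 3 (0.0555 and 0.0825), or Qk-KO replicate 2 or 3 (0.0922 and 0.0592). The most abundant of these genes, Stk11 and Prkaa1, stood at -0.07 ± 0.11 and 0.13 ± 0.12 and were not called (adjusted p = 0.675 and 0.430).

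None of 7 tested genes of mitochondrial fatty acid synthesis and lipoylation was called by limma, 0 had an unadjusted p under 0.05, and the authors' deposited table called 0. Their changes ran from -0.20 to 0.18. Ndufab1, the mitochondrial acyl carrier protein, had a change of -0.20 ± 0.12 and Aasdhppt, which attaches its phosphopantetheine arm, of 0.02 ± 0.19. The list labelled first steps on palmitate also holds enzymes of longer fatty acids. Elovl6, an elongase of this list picked after its value was seen, was not called (0.28 ± 0.14, limma adjusted p = 0.181). Of the 12 genes 7 fell and 0 rose, with a median of -0.94. They were led by the desaturase Scd1 (-1.91 ± 0.12), Fads2 (-2.03 ± 0.14), the acyl-CoA synthetase Acsl6 (-2.74 ± 0.18) and Fads1 (-1.02 ± 0.12), with limma adjusted p-values of 8.73e-05, 9.14e-05, 9.19e-05 and 0.000742. Where Qk-KO replicate 1 stood for its group 7 of the 12 fell too, but with library size alone 1 fell, the list's median was 0.12 and Fads1 stood at 0.04.

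**Figure D4:**
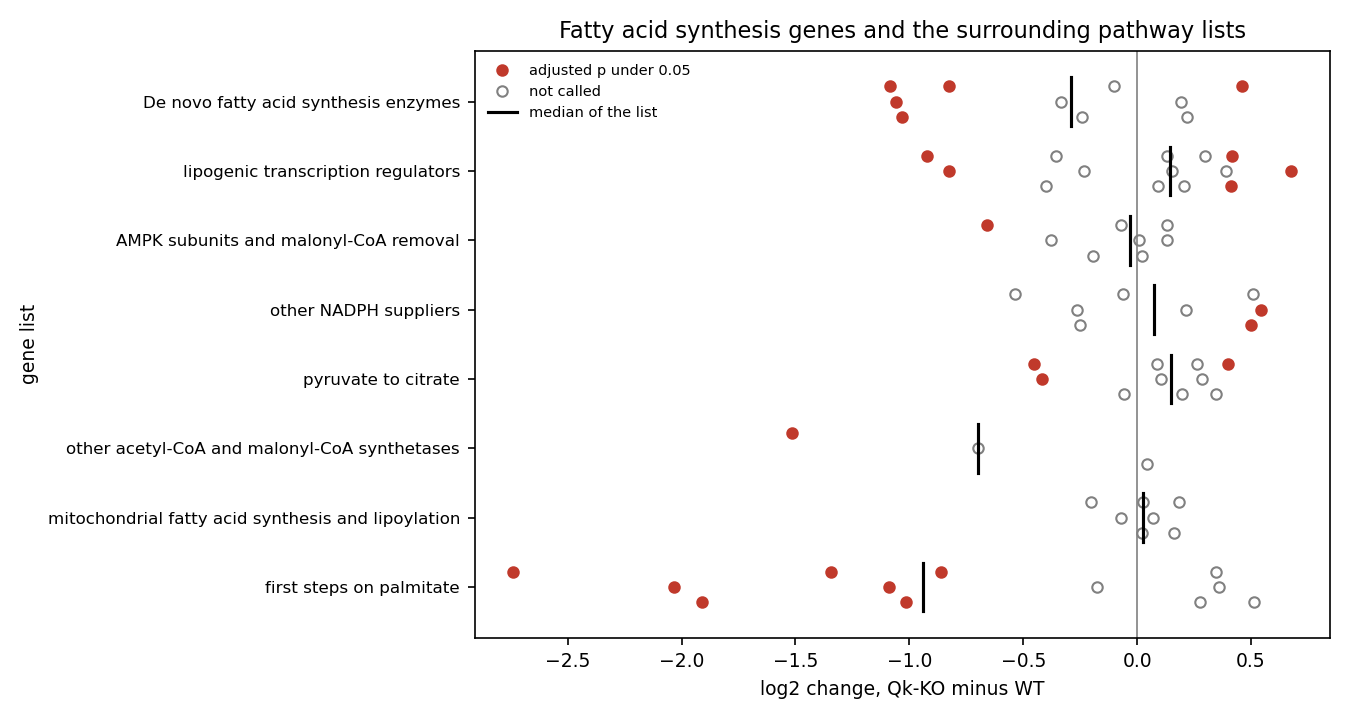
Log2 change, Qk-KO minus WT (horizontal axis), of each tested gene of the 10 fatty acid synthesis genes and of the 7 lists around them (vertical axis), filled red where the limma adjusted p was under 0.05 and open where it was not, with the median of each list as a black line. Changes of mitochondrial fatty acid synthesis genes lie from -0.20 to 0.18. Those of the list labelled first steps on palmitate, which also holds enzymes of longer fatty acids, lie from -2.74 to 0.51. Scaled by library size alone, the medians of these 2 lists stand at 1.08 and 0.12.

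The features whose 6 log2 values were most like those of Fasn were Pfkm, Lrig1, Acot11, Spsb4 and Pygm, with Pearson's r from 0.9992 to 0.9998 over the 6 libraries. In all of them the WT and Qk-KO libraries form separate clusters, so that r mainly records this gap, and 157 of the 15153 features had an r above 0.99. The change was -2.09 ± 0.12 for Pfkm (muscle phosphofructokinase), -2.36 ± 0.13 for Acot11 (an acyl-CoA thioesterase) and -2.73 ± 0.12 for Pygm (muscle glycogen phosphorylase).

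Markers of other cells moved in the same libraries as the falls of Fasn, Acacb, Thrsp and Me1. Their counts are to be read against all features, of which 14.8% were called lower and 13.8% higher. With library type as a term these shares were 9.14% and 5.76%. With library size alone 16.1% of features were called, 97.3% of these calls were rises, and the median of all features was 1.09. Of 12 astrocyte markers 11 fell, with a median of -2.68, and the exception, Gfap, was not called (0.81, adjusted p = 0.0526). Of 8 endothelial markers 8 fell (median -1.01), and of 6 mural cell markers 5 (median -0.81); with library size alone 7 astrocyte, 0 endothelial and 0 mural markers fell, with medians of -1.62, 0.05 and 0.25. Summed endothelial markers were 23390 to 32065 normalized reads in WT against 12745 to 13781 in Qk-KO, and summed mural markers 14985 to 18061 and 8168 to 8873. Among 10 microglial markers 4 rose (median 1.21), with sums of 6906 to 11134 in WT against 15966, 17063 and 58565 in Qk-KO, and without WT replicate 2 or 3 only 1 was called. Library type as a term left 0 microglial calls (median 0.82), the authors' deposited table gave 2, and library size alone gave 8 (median 2.27). Of 10 mature oligodendrocyte markers 6 rose (median 0.81), though leaving out WT replicate 1, WT replicate 3 or else Qk-KO replicate 2 left 2 calls, and library size alone gave 8 (median 1.87). Of 6 precursor markers 1, Ptprz1, fell (median -0.29). With library size alone or library type as a term 0 precursor markers fell (medians 0.76 and 0.52), and leaving out WT replicate 3 gave a median of 0.19, leaving out Qk-KO replicate 3 one of 0.33, against 0.52 where Qk-KO replicate 1 stood for its group. Of 8 neuronal markers 2, Tubb3 and Slc17a7, rose (median 0.14), against 1 without any 1 of the WT libraries or Qk-KO replicate 3, while leaving out Qk-KO replicate 2 left 0. The neuronal median was -0.08 without Qk-KO replicate 1. No marker of these lists was at 0 in the table. Every Qk-KO library lay below all WT libraries both in summed astrocyte markers (28205, 32150 and 20360) and in Fasn (log2 12.78, 12.89 and 12.85). The lowest WT values were 139540 for the summed markers and 13.83 for Fasn. Astrocytes also express enzymes of fatty acid synthesis, and the part of the other cells' RNA in these changes was not tested.

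**Figure D5:**
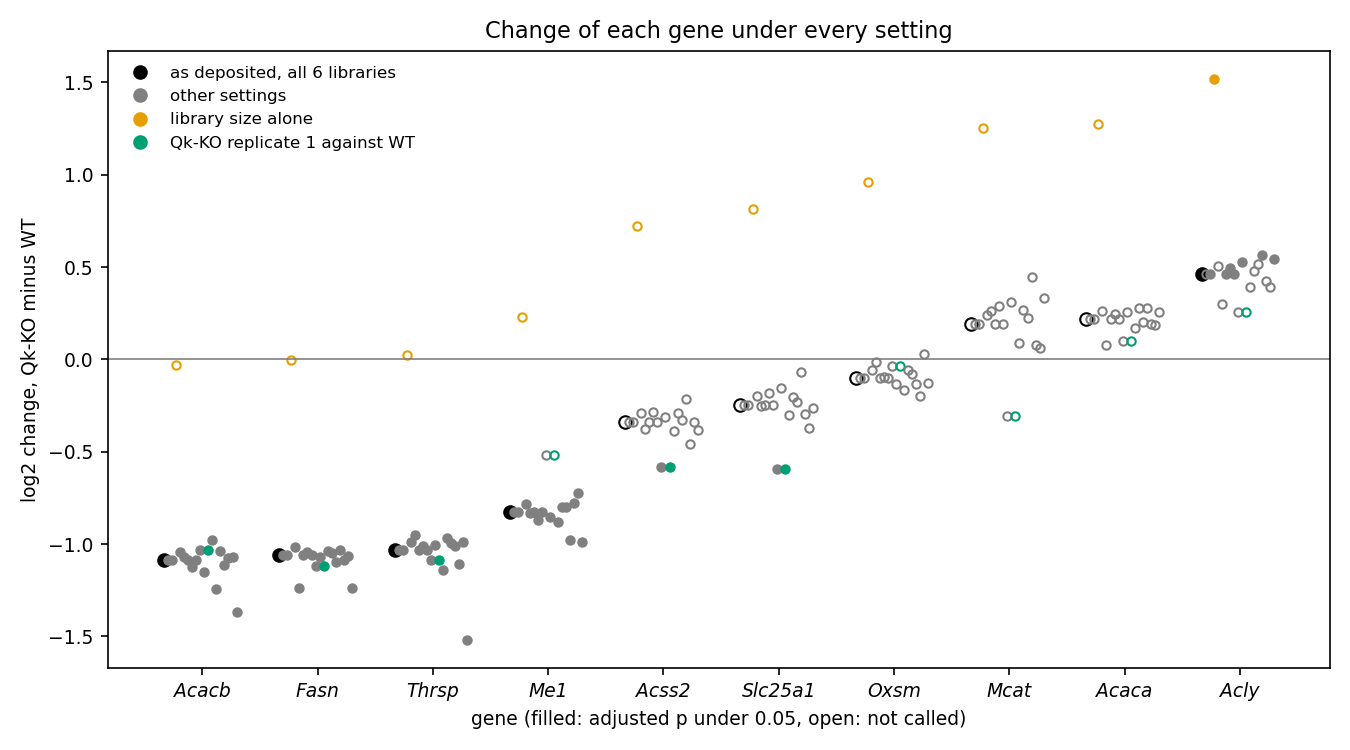
Log2 change, Qk-KO minus WT (vertical axis), of the 10 genes under each setting, 1 point per setting, filled where the adjusted p was under 0.05 (all features as deposited in black, library size alone in orange, Qk-KO replicate 1 against WT in green, all others in grey). With library size alone, which moved the median of all features by 1.06, Fasn lies at -0.00 and Acly at 1.52.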

How the data were processed

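The submitters' processing notes name FastQC, TopHat2 2.0.14, featureCounts and DESeq2, run by the authors, and the build mm10. Annotation release and strandedness: not given in the sources used here. In the authors' deposited table each library has log2 values that behave as regularized log2 values of DESeq2, with 0 where no library has a read. Back-transformed, their mean had a median log2 ratio of -0.02 to the table's mean normalized count, over 13221 features at or above 50. It also gives the authors' mean normalized count, a signal over all 6 libraries, and their comparison with a log2 fold change, its error, and, per the file headers, a Wald score, a p-value and its adjusted form. Columns were tied to samples through the sample numbers that labels and headers share.

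Because the values are not counts, limma 3.58.1 (R 4.3.3, trended variance prior, no pseudocount) was run on the 15153 features whose mean normalized count reached 20, with genotype as the only term, and p-values were adjusted by Benjamini-Hochberg over all of them. Size factors came from the steps that single reads leave in the mean normalized count, and approximate reads are back-transformed values times the size factor. Exon lengths are from GENCODE M21, in which 46488 of 46983 identifiers were found. Exact permutation tests used all 20 splits. Named are the 10 genes, Qk, up to 4 called genes per list by adjusted p (the 2 most abundant where fewer than 2 were called) and the 5 features most like Fasn, unnamed gene models left out. The genes and lists were chosen with earlier results of these data known. Replicate numbers were not treated as pairs.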

Additional observations from a re-analysis of the deposited data

How the results depend on the processing

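The settings were other filters, scalings and variance models, added terms, Qk-KO replicate 1 against WT, leaving out each library, and the authors' deposited table. Of 15153 features 4330 were called with all 6 libraries, 2447 with library size alone, 2258 with library type as a term, 2355 in Qk-KO replicate 1 against WT, and 2370 to 5633 without 1 library (2370, 2663 and 2568 without Qk-KO replicate 2, WT replicate 1 and WT replicate 3). Without a filter 3405 of 26015 were called. Of the 10 genes 5 were called, 1 with library size alone and 4 or 5 otherwise. Rises made up 48.2% of all calls, 97.3% with library size alone, 38.7% with library type as a term and 39.7% in Qk-KO replicate 1 against WT. Library type as a term and replicate 1 against WT give the same changes, since the low-ribosomal libraries are then set aside. Fasn, Acacb and Thrsp were called in all 16 settings of limma other than library size alone (changes from -1.24 to -1.02, -1.24 to -0.98 and -1.14 to -0.95), Me1 in 14 (-0.98 to -0.52) and Acly in 6 (0.26 to 0.56). Signs turned with library size alone for Acss2 (0.72), Me1 (0.23), Slc25a1 (0.81), Thrsp (0.0238), Oxsm (0.96), Mid1ip1 (0.14), Insig1 (0.23), Stk11 (0.99), Pdha1 (0.60), Cs (0.64), Ndufab1 (0.85), Fads1 (0.0422), Prkab2 (0.40) and Srebf1 (0.70), all shifted with the median of all features. Elsewhere signs turned only in genes not called: Mcat (-0.31) and Stk11 (0.0231) with library type as a term and in replicate 1 against WT, Qk with quantile normalization (-0.0105), and Aasdhppt in the authors' deposited table (-0.0033). Leaving out 1 library at a time gave -0.12 to 0.0102 for Stk11, -0.20 to 0.0316 for Oxsm, -0.0074 to 0.39 for Qk, -0.0052 to 0.11 for Acsf3 and -0.16 to 0.15 for Aasdhppt. With the replicate number as a block 4345 features and 5 of the 10 genes were called. Deviations of same-numbered libraries correlated at 0.10, 0.00 and 0.08, so the numbers were not taken as pairs. The cause of these differences was not tested. Estimated reads per library were lowest for Thrsp (72 to 557), Mcat (87 to 1123) and Oxsm (92 to 895).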
